A study of Homo sapiens with 6 samples.

Results

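Condensin, topoisomerase II and Ki-67 build and separate the rod-shaped chromosomes of mitosis, and their mRNA was followed here in MDA-MB-231 cells, an established human line of triple-negative breast cancer. The 10 members, taken by symbol, were SMC2, SMC4, NCAPD2, NCAPD3, NCAPG, NCAPG2, NCAPH, TOP2A, TOP2B and MKI67. All 10 were found among the 41471 gene symbols of the knockdown tables and among the 34157 of the rebastinib tables. In the first experiment the cells stably carried a lentiviral scramble shRNA, CDK16-sh1 or CDK16-sh2, so the control carried a hairpin too. In the second, cells received DMSO, 1 μM or 5 μM rebastinib (Reb), a kinase inhibitor that the study used against CDK16, for 48 h. The study asked how loss or inhibition of CDK16, an atypical cyclin-dependent kinase, changes the transcriptome of these cells. Each of the 6 conditions had 1 library, so no difference below has a replicate check among these libraries.

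Condensin is a ring-shaped complex that folds chromatin into loops. SMC2 and SMC4 are the long ATPase arms shared by both forms of the complex. Condensin I adds NCAPD2, NCAPG and NCAPH, and reaches chromosomes after the nuclear envelope has broken down, whereas condensin II adds NCAPD3, NCAPG2 and NCAPH2 and resides in the nucleus. Topoisomerase II passes one DNA duplex through another and so untangles sister chromatids. TOP2A serves dividing cells, and TOP2B is also made by cells that do not divide. MKI67 encodes Ki-67, the coat protein of mitotic chromosomes that pathologists stain as a mark of proliferation. In bulk RNA, another share of cells in G2 or mitosis and another amount of an mRNA per cell cannot be told apart. By flow cytometry the study reported arrest in G2/M when CDK16 was knocked down in triple-negative lines. No cell cycle phase is given for the cells of these libraries.

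Many genes transcribed late in the cell cycle carry a CHR (cell cycle genes homology region) near the start, often with a CCAAT box, the site of the factor NF-Y. These letters were searched in windows from 250 bases before to 50 bases after the RefSeq start (GRCh38.p14), which were held for all 10 members. TTTGAA or TTTAAA, on either strand, stood in 9 of the 10 windows, all but that of NCAPD3, against 24.0% of 35116 windows of all genes. CCAAT, on either strand, stood in 5 of the 10, those of NCAPD2, NCAPH, TOP2A, TOP2B and MKI67, against 34.6%, and these 5 were also the members that held both, against 9.27%. None held TTTCCCGC, TTTGGCGC, TTTCGCGC or TTTGCCGC, words of E2F sites, which stood in 3.31% of all windows. The CHR letters are shown because they are what most of these promoters have in common. Whether they have a part in the members' values was not tested. Each line gives, on the strand of the gene, the CHR letters in capitals (TTCAAA is TTTGAA read on the other strand) and the 12 bases on each side.
SMC2 (chr9:104094294-104094323, plus strand): ctcgcgccgaaaTTCAAAggaataaatagt
SMC4 (chr3:160399563-160399592, plus strand): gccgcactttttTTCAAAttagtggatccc
NCAPD2 (chr12:6493945-6493974, plus strand): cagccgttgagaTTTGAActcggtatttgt
NCAPG (chr4:17810932-17810961, plus strand): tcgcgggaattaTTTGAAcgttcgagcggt
NCAPH (chr2:96335786-96335815, plus strand): cgacgcgcgcgaTTTAAAaccagctcagga
NCAPG2 (chr7:158704755-158704781, minus strand, cut at the end of the window): ccggcgggtgcgTTTGAAtctggtccg
TOP2A, farther from the start (chr17:40418073-40418102, minus strand): cgagtggtgcctTTTGAAgcctctctagtc
TOP2A, nearer to the start (chr17:40418030-40418059, minus strand): ctgattggtttaTTCAAAcaaaccccggcc
TOP2B (chr3:25665117-25665146, minus strand): ccctgctctcccTTCAAAtggaaaacccac
MKI67, farther from the start (chr10:128126453-128126482, minus strand): ttagcgccagaaTTTGAAtcttcgttttcg
MKI67, nearer to the start (chr10:128126435-128126464, minus strand): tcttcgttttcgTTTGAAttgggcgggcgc
A match is letters only and not a site. For 4 members RefSeq gave more than 1 start, and the one nearest to the 5′ end of the gene in the deposited tables was used. Over all 10 members the start lay 7 bases (NCAPD3) to 746 bases (NCAPD2, with a single start) from that end.

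Reads were counted over all exons of a gene, in the coordinates of GRCh38. TOP2A spans chr17:40388516-40417950 and TOP2B chr3:25597905-25664939, and MKI67 spans chr10:128096659-128126385, all on the minus strand. SMC2 spans chr9:104094260-104141417 and SMC4 chr3:160399274-160434962, both on the plus strand. The condensin I genes lie on the plus strand, NCAPD2 at chr12:6493356-6531955, NCAPG at chr4:17810902-17844862 and NCAPH at chr2:96335787-96373845. The condensin II genes lie on the minus strand, NCAPD3 at chr11:134150119-134225454 and NCAPG2 at chr7:158631311-158704829. NCAPD2 shares 486 exon bases with MRPL51 and NCAPD3 810 with JAM3, VPS26B and a further gene, on the other strand. The tables of both experiments also list pseudogenes of NCAPD2 and NCAPG, and those of the knockdown list a pseudogene of MKI67. Reads of these genes that match a copy are thus uncertain.

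The libraries held 25838443 to 31955119 counts in the knockdown experiment and 37655548 to 50303269 in the Reb experiment. CPM are counts scaled to library size with TMM factors, a log2 fold change compares a treated library with its own control, and its bracketed 95% Clopper-Pearson interval covers counting error only. The target CDK16 stood at 34.4% of the scramble level with CDK16-sh1 and 28.3% with CDK16-sh2, and at 90.6% and 105% of DMSO with 1 μM and 5 μM Reb, the last of these being 74.8% when scaled by library totals. All 8 markers of MDA-MB-231 cells (VIM, CD44 and others) were above 1 CPM in every library, and 4 or 5 of 6 luminal markers were below it, with GATA3 at 2.46 to 11.7 CPM. Of 7 markers of other cell types 3 to 6 were below 1 CPM, ALB and CD3E among them, whereas CD68, a lysosomal protein, stood at 202 to 651 CPM and was highest at 5 μM Reb. The summed level of these 7 was 209 to 652 CPM, nearly all of it CD68, and its part in the members' values was not tested. In the 5 μM library the 100 most counted genes took 35.3% of the counts against 24.3% in DMSO, and mitochondrial transcripts took 16.4% against 7.19%. Its median gene stood at −0.25 on the log2 scale with TMM and at −0.73 with library totals, and the part of these shifts in the members' values was not tested.

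Per length of transcript, Ki-67 mRNA led the group in both control libraries. On the authors' RPKM scale the levels in scramble cells were MKI67 101.6, TOP2A 78.6, NCAPD2 35.4, NCAPG 29.9, SMC4 29.2, TOP2B 24.7, NCAPH 22.5, SMC2 17.8, NCAPG2 16.5 and NCAPD3 14.7. DMSO cells had the same first and second gene, at 159.9 and 82.9 RPKM, followed by NCAPH at 49.9 and NCAPD2 at 47.5. The order at 5 μM Reb was another one. TOP2B came first at 26.8 RPKM, followed by MKI67 at 12.2, NCAPG2 at 12.02, NCAPG at 6.27, NCAPD2 at 4.77, SMC2 at 4.06, SMC4 at 3.58, NCAPH at 3.48, TOP2A at 3.01 and NCAPD3 at 2.46. TOP2A thus went from the second place of 10 to the ninth. With 1 library per condition, the spread that would separate neighbours in these orders is unknown.

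**Figure D1:**
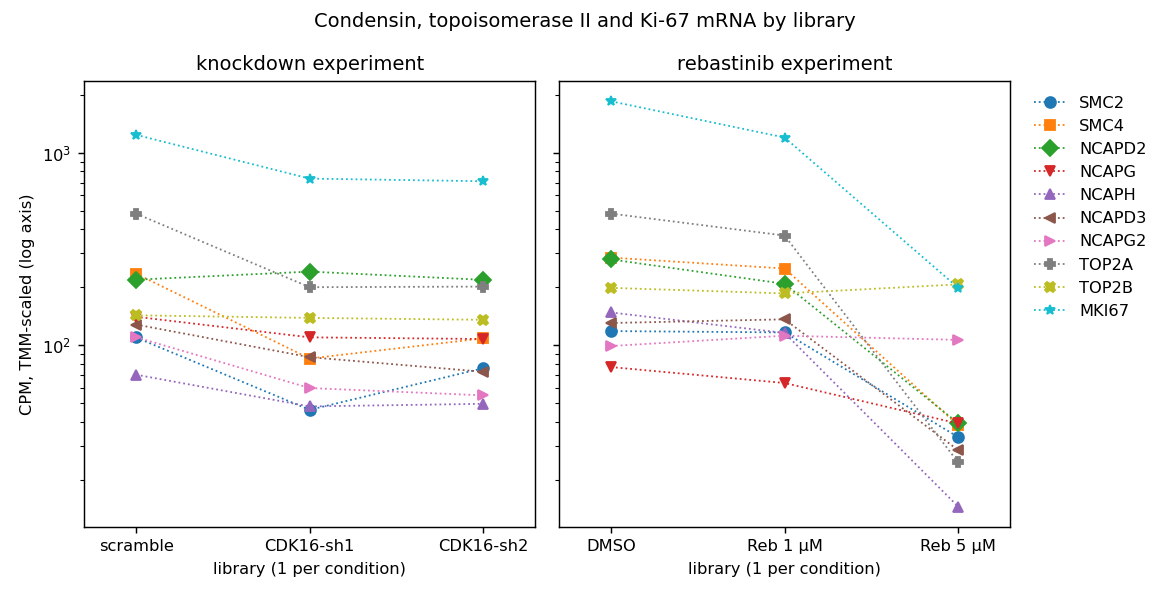
TMM-scaled CPM of the 10 members (log axis) in the 3 libraries of each experiment, 1 point per library, with dotted lines that only join the points of a gene. At 5 μM Reb, TOP2A (24.6 CPM) lies below all other members but NCAPH (14.5 CPM), while TOP2B (207 CPM) and NCAPG2 (106 CPM) lie near their DMSO levels on this scale and below them when scaled by library totals.

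The members were mostly lower than scramble with both hairpins and much lower than DMSO at 5 μM Reb. With CDK16-sh1, 9 of 10 members were below scramble, against 51.4% of 15280 genes, and 3 were at least 2-fold lower, against 7.19%. With CDK16-sh2, 10 of 10 were below scramble, against 48.4%, and 3 were at least 2-fold lower, against 7.57%. The median log2 fold change of the members was −0.66 and −0.67, beside −0.02 and 0.02 for all genes. At 1 μM Reb 8 of 10 were below DMSO, against 50.1% of 15648 genes, and 0 were at least 2-fold lower, against 1.96%. The 5 μM library had 8 of 10 below DMSO, against 56.6%, and 7 at least 2-fold lower, against 31.1%. The medians of the members were −0.23 and −2.51, beside 0.00 and −0.25. SMC4, TOP2A and MKI67 were among the genes that the study itself singled out on these samples, so they are not independent evidence of a direction. By quantitative PCR in this line, the study also reported lower TOP2A and MKI67 with Reb and with CDK16 knockdown. It names no such measurement of SMC4.

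**Figure D2:**
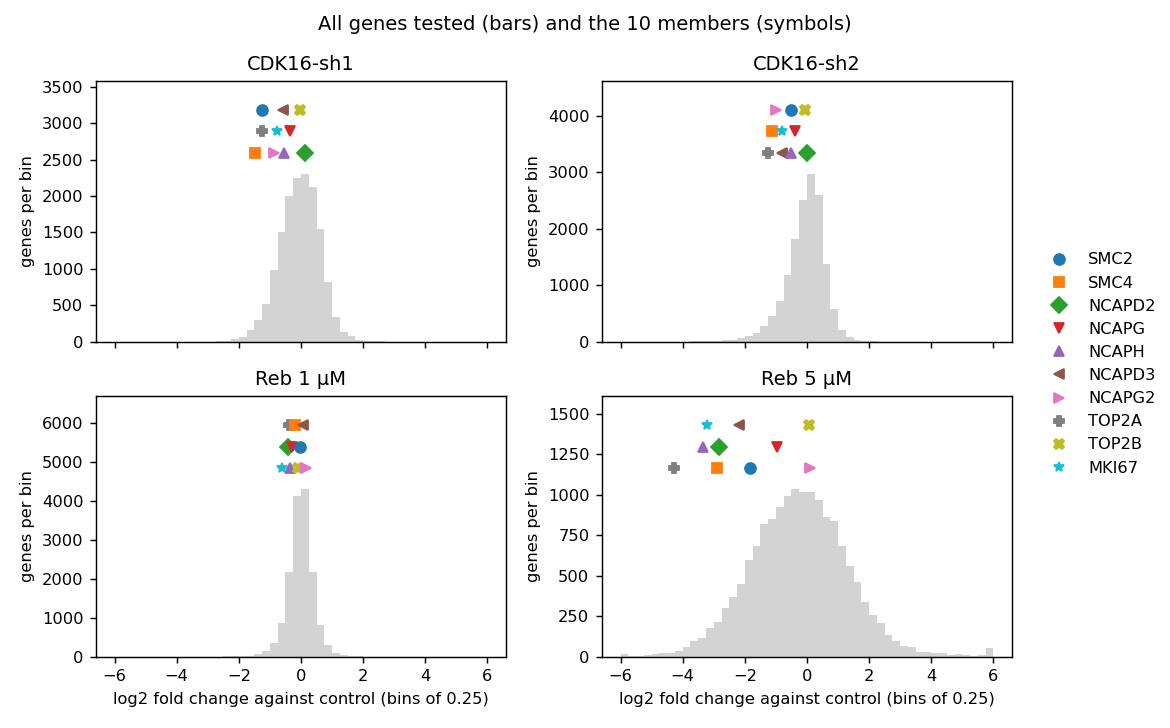
Distribution of the log2 fold change of all genes tested (grey bars, bins of 0.25, with values beyond the axis gathered in the outermost bins) in each treated library, with the 10 members as symbols set above the bars at 3 heights for legibility. At 5 μM Reb the members run from −4.29 (TOP2A) to 0.11 (NCAPG2), and TOP2B and NCAPG2, just right of 0, are left of 0 when scaled by library totals.

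The test across all genes had to take both treated libraries of an experiment as 1 group against its control, so that the difference between hairpins or doses served as the spread. With edgeR's quasi-likelihood test and Benjamini-Hochberg adjustment, 0 of 10 members were called in the knockdown experiment, beside 0% of 15280 genes. Without adjustment, edgeR gave 385 genes a p under 0.05. SMC4 (edgeR, unadjusted p = 0.0100) and TOP2A (0.0120) were the members among them. DESeq2 also called 0 genes and gave 235 an unadjusted p under 0.05. For Reb, 0 of 10 members were called by edgeR, beside 0.0383% of 15648 genes, and no member had an unadjusted p under 0.05 with edgeR or DESeq2. With dose as a linear term of log2(dose + 1), 7 of 10 members were called, all with lower levels at higher dose, beside 25.6% of all genes in either direction. This fit has 3 libraries and leaves 1 degree of freedom per gene, so it has no replicate behind it either.

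SMC4 and SMC2 were both lower with each hairpin, but not to the same extent. SMC4, the larger of the arms in mRNA level, stood at 235 CPM in scramble, 85.2 CPM with CDK16-sh1 and 108 CPM with CDK16-sh2. Its log2 fold changes were −1.46 [−1.53, −1.40] and −1.12 [−1.18, −1.05], and 2.06% and 5.88% of all genes were lower. SMC2 stood at 109.6 CPM in scramble, 46.1 CPM with CDK16-sh1 and 75.8 CPM with CDK16-sh2, which is 42.1% and 69.2% of the control. The hairpins differed from each other by more than counting error. SMC2 was higher with CDK16-sh2 than with CDK16-sh1 by 0.72 [0.62, 0.82] on the log2 scale. After removal of a trend on GC content and length, described below, SMC2 stood at −0.78 with CDK16-sh1 and −0.30 with CDK16-sh2. At 1 μM Reb both were near DMSO, SMC4 with 250.2 against 285 CPM and SMC2 with 116 against 118 CPM. At 5 μM they stood at 38.4 and 33.3 CPM, or 13.5% and 28.1% of DMSO, with adjusted p = 0.000347 and 0.0187 for the dose term of edgeR. SMC4 thus was the more lowered of the pair in 4 of 4 treated libraries. The treated libraries of an experiment share a control, so these are not independent comparisons. SMC4 shares 2168 exon bases with TRIM59 and IFT80 on the other strand. At 5 μM TRIM59 stood at 148% of DMSO, or 105% by library totals, and IFT80 at 45.3%, from 804 to 194 counts. Their part in the SMC4 counts, if the counting ignored strand, was not tested.

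The condensin I subunits differed from each other in the knockdown and again at 5 μM Reb. NCAPD2, one of the HEAT-repeat subunits that hold DNA, was close to the control with both hairpins, at 219 CPM in scramble, 241 CPM with CDK16-sh1 and 219 CPM with CDK16-sh2. It was the single member above scramble in the CDK16-sh1 library, with a log2 fold change of 0.14 [0.09, 0.19]. At 5 μM Reb, in contrast, NCAPD2 stood at 39.3 CPM against 279 CPM in DMSO and 208 CPM at 1 μM, a log2 fold change of −2.83 [−2.92, −2.74]. NCAPH is the kleisin that closes the ring of condensin I. It was at 70.2 CPM in scramble and at 48.0 and 49.5 CPM with the hairpins, and at 148 CPM in DMSO, 116 CPM at 1 μM and 14.5 CPM at 5 μM Reb. The last value is 9.82% of DMSO, from 430 counts, the lowest count of any member in any library. NCAPG, the other HEAT-repeat subunit of condensin I, was the least changed of the 3 at 5 μM. It had 140.4 CPM in scramble, 109.8 and 108 CPM with the hairpins, 76.9 CPM in DMSO, 63.5 CPM at 1 μM and 39.1 CPM at 5 μM, where the log2 fold change was −0.97 [−1.07, −0.88]. For the dose term edgeR gave adjusted p = 0.219 for NCAPG, 0.000364 for NCAPD2 and 3.55e-05 for NCAPH. NCAPG shares 1631 of its 4921 exon bases with LCORL on the other strand, which stood at 71.1% of DMSO at 5 μM with 577 counts against 1162 for NCAPG. What LCORL adds to the NCAPG counts, if the counting ignored strand, was not tested.

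The condensin II subunits NCAPD3 and NCAPG2 were lower than scramble with both hairpins and parted at 5 μM Reb. NCAPG2 stood at 109.9 CPM in scramble, 59.8 CPM with CDK16-sh1 and 54.8 CPM with CDK16-sh2, with log2 fold changes of −0.88 [−0.96, −0.79] and −1.002 [−1.10, −0.91]. NCAPD3 stood at 128, 86.5 and 72.7 CPM, or 67.7% and 56.8% of scramble. After removal of the GC and length trend, NCAPG2 stood at −0.47 with CDK16-sh1 and −0.79 with CDK16-sh2. NCAPD3 then stood at −0.35 and −0.65. At 1 μM Reb both were slightly above DMSO, at 105% for NCAPD3 and 113% for NCAPG2. At 5 μM, NCAPD3 was at 28.5 CPM against 130.3 CPM in DMSO, a log2 fold change of −2.19 [−2.30, −2.09]. NCAPG2 was at 106 CPM against 99.0 CPM in DMSO, a log2 fold change of 0.11 [0.04, 0.17] that became −0.38 when scaled by library totals. On both scales NCAPG2 stood above the median gene of that library. Condensin I and II thus did not move as 2 blocks at 5 μM: the 3 subunits of the first ran from −3.35 to −0.97 on the log2 scale, and those of the second from −2.19 to 0.11.

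NCAPD2 and NCAPG2 had opposite patterns over the experiments. NCAPD2 stood at 110.1% and 99.8% of scramble in the hairpin libraries and at 14.1% of DMSO at 5 μM Reb. NCAPG2 stood at 54.5% and 49.9% of scramble and at 108% of DMSO, or 76.8% by library totals. These experiments have no library in common, so their values do not share a control.

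**Figure D3:**
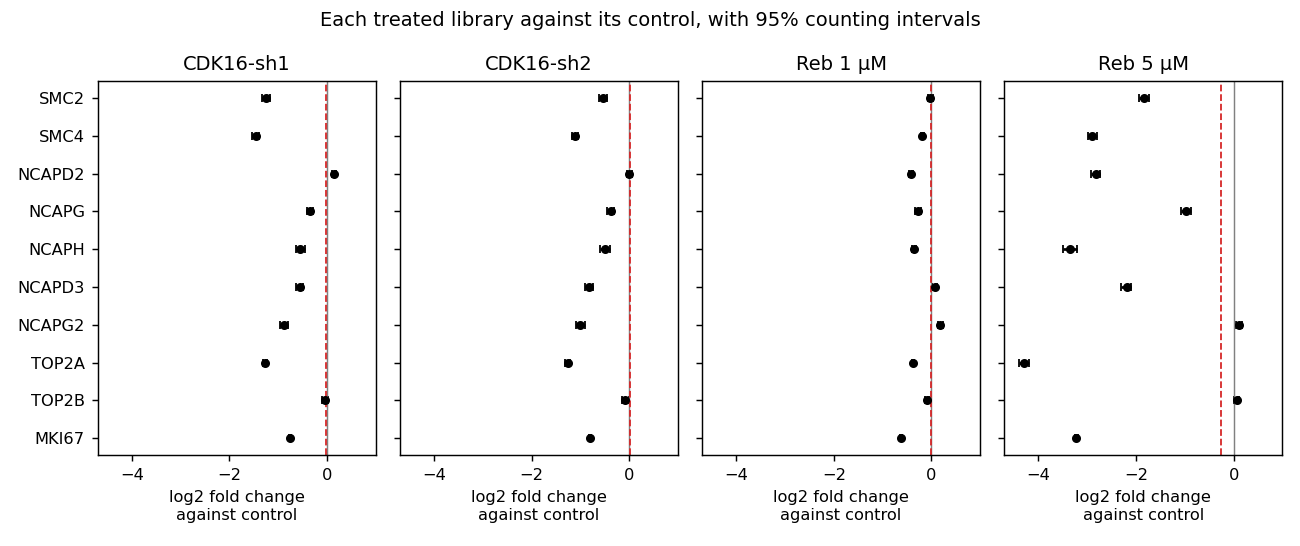
Log2 fold change of each member (points) in the 4 treated libraries against scramble or DMSO, with 95% counting intervals, a grey line at 0 and a red dashed line at the median of all genes tested. NCAPD2 lies at 0.14 and 0.00 with the hairpins and at −2.83 at 5 μM Reb, and NCAPG2 at −0.88, −1.002 and 0.11, the last of these −0.38 when scaled by library totals.

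The topoisomerase II genes diverged in every treated library. TOP2A, the enzyme of dividing cells, stood at 483 CPM in scramble and at 200.1 and 202 CPM with the hairpins, with log2 fold changes of −1.27 [−1.31, −1.23] and −1.26 [−1.31, −1.21]. The hairpins differed by 0.01 [−0.04, 0.06] for TOP2A, which is within counting error. After removal of the GC and length trend, TOP2A stood at −0.83 with CDK16-sh1 and −1.04 with CDK16-sh2. It stood at 483 CPM in DMSO too, at 371 CPM with 1 μM and at 24.6 CPM with 5 μM Reb, which is 76.9% and 5.10% of DMSO. The log2 fold change at 5 μM was −4.29 [−4.40, −4.19], and only 96 of 15648 genes, or 0.613%, were lower in that library. For the dose term edgeR gave TOP2A an adjusted p = 5.58e-07. TOP2B, whose enzyme also works in resting cells, had 143, 139 and 135 CPM in the knockdown experiment and 198, 186 and 207 CPM in the Reb experiment. Its log2 fold changes were −0.05 [−0.11, 0.02] and −0.08 [−0.14, −0.01] with the hairpins, −0.10 [−0.13, −0.06] at 1 μM and 0.06 [0.02, 0.11] at 5 μM, the last becoming −0.43 by library totals.

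A ratio of counts within a library does not depend on how libraries are scaled. The ratio of TOP2A to TOP2B counts was 3.38 in scramble and 1.44 and 1.49 with the hairpins, and it was 2.43 in DMSO, 2.00 at 1 μM and 0.119 at 5 μM Reb. Per length of transcript these ratios were 3.19, 1.36, 1.41, 2.298, 1.89 and 0.112, so TOP2B was the more abundant enzyme mRNA at 5 μM and the less abundant one in the other 5 libraries. The ratio of SMC2 to SMC4 counts was higher in each treated library than in its control, from 0.466 to 0.541 and 0.699 in the knockdown, and from 0.415 to 0.465 and 0.867 with Reb. NCAPG to NCAPG2 moved in opposite directions in the experiments. It went from 1.28 in scramble to 1.84 and 1.96 with the hairpins, and from 0.777 in DMSO to 0.568 and 0.367 with Reb. The ratio of NCAPD2 to NCAPD3 did so as well, from 1.71 to 2.79 and 3.01 with the hairpins and from 2.14 to 1.53 and 1.38 with Reb.

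**Figure D4:**
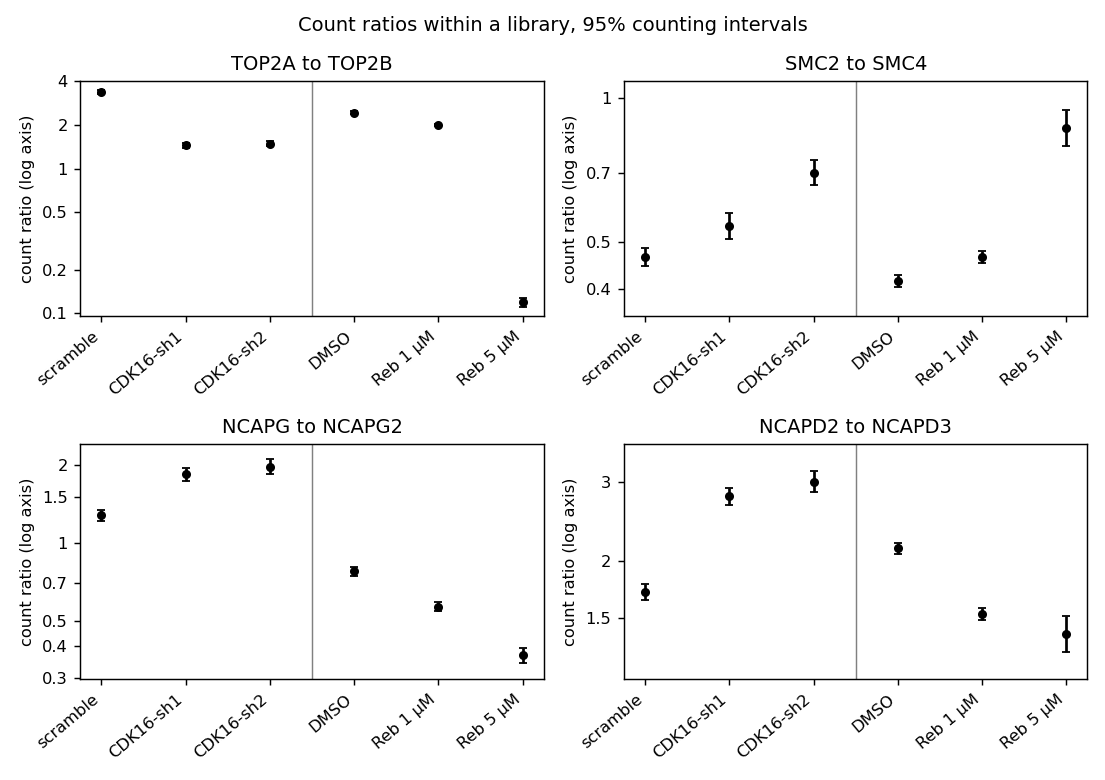
Count ratios of 4 pairs of members within each library (log axis), with 95% counting intervals and a grey line between the experiments. The ratio of TOP2A to TOP2B is 2.43 in DMSO and 0.119 at 5 μM Reb, and the lower panels show ratios that are above scramble with the hairpins and below DMSO with Reb.

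The promoters of TOP2A and TOP2B share the kinds of letters searched, although their mRNAs differed. They are shown from 250 bases before the RefSeq start up to the first base of the gene in the deposited tables, with CHR and CCAAT letters (ATTGG is CCAAT on the other strand) in capitals. TOP2A had 2 CHR and 4 CCAAT matches in its window, 3 of the latter in the stretch printed, and TOP2B had 1 and 2.
TOP2A (chr17:40417951-40418146, minus strand): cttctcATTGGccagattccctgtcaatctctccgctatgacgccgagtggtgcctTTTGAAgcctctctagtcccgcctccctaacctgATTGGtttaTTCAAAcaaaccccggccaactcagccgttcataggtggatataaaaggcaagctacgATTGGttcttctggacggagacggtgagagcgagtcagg
TOP2B (chr3:25664940-25665157, minus strand): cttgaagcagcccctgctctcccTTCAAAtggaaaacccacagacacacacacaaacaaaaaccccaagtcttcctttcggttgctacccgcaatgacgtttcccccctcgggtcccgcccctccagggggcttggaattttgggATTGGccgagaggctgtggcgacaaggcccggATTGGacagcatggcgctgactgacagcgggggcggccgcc
The CHR letters of TOP2B lay at positions −227 to −222 from the start. Those of TOP2A lay at −194 to −189 and −151 to −146, and those of NCAPG2, the other member near its DMSO level at 5 μM, at 35 to 40, inside the transcript. Those of NCAPH, at 9.82% of DMSO at 5 μM, also lay inside, at 32 to 37. Those of SMC2, at 28.1% of DMSO, lay across the start, at −3 to 2. Whether position has a part in the members' values was not tested.

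Ki-67 mRNA was lower in all 4 treated libraries and was the lowest of the members, relative to its control, at 1 μM Reb. MKI67 stood at 1240.2 CPM in scramble, 734 CPM with CDK16-sh1 and 712 CPM with CDK16-sh2, or 59.2% and 57.4% of the control. Its log2 fold changes were −0.76 [−0.78, −0.73] and −0.80 [−0.83, −0.78], so the hairpins lay close to each other. In the Reb experiment it stood at 1853 CPM in DMSO, 1201 CPM at 1 μM and 199 CPM at 5 μM. The log2 fold change was −0.63 [−0.64, −0.61] at 1 μM, where 6.42% of all genes were lower, and −3.22 [−3.26, −3.18] at 5 μM, where 2.75% were lower. For the dose term edgeR gave MKI67 an adjusted p = 9.45e-05. With 103038 counts in DMSO and 5905 at 5 μM, it had the narrowest counting interval of the members. The stretch before its start holds its CHR matches next to each other, and the nearer one shares its last base with a CCAAT box (capitals TTTGAATTGG).
MKI67 (chr10:128126424-128126673, minus strand): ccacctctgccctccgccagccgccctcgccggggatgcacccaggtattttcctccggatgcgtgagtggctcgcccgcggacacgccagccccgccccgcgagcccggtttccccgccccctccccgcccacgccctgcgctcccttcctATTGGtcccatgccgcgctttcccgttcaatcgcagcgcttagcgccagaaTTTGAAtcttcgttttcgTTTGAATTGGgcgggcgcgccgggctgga

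The log2 fold changes moved with base composition in both experiments, most in the CDK16-sh1 library. Across genes, which are not independent replicates and share the 2 libraries, the log2 fold change of CDK16-sh1 had a Pearson r of 0.443 with the GC content of the gene, and that of CDK16-sh2 one of 0.120. With 1 μM Reb r was −0.295, and with 5 μM −0.196. The members have a median GC content of 40.6%, against 48.5% for all genes. In the CDK16-sh1 library the median of the 1852 genes with a GC content from 36 to 40% was −0.44. SMC2, SMC4, TOP2A, TOP2B and NCAPG fall in that range. After a trend on GC content and length was removed, the values with CDK16-sh1 were −0.93 for SMC4, −0.83 for TOP2A, −0.78 for SMC2 and −0.48 for MKI67, and 0 of 10 members were at least 2-fold lower. NCAPG then stood at 0.02 and TOP2B at 0.37, above scramble. With CDK16-sh2 the same step left TOP2A at −1.04, SMC4 at −0.82 and NCAPG2 at −0.79, TOP2B at 0.12, and 1 of 10 members at least 2-fold lower. With 1 μM Reb, 0 of 10 were at least 2-fold lower before and after this step. At the higher dose TOP2A stood at −4.57, and 8 of 10 members were at least 2-fold lower in place of 7, with NCAPG at −1.32. The share of all genes at least 2-fold lower after this step is not given, so these counts have no background beside them.

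**Figure D5:**
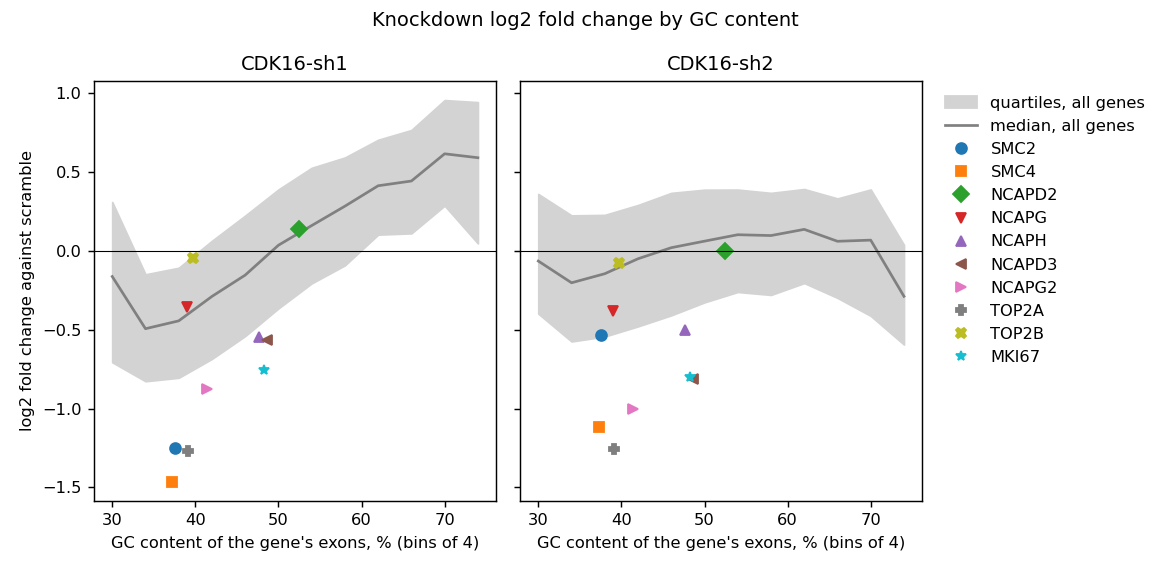
Log2 fold change against scramble by GC content, with the median (line) and quartiles (band) of all genes in bins of 4 percentage points. Symbols are the 10 members. GC content is that of the gene's longest annotated transcript, which the axis label calls exons. In the CDK16-sh1 panel the line climbs from −0.44 at 36 to 40% GC to 0.41 at 60 to 64%. SMC4, SMC2, TOP2A, NCAPG2, MKI67, NCAPD3 and, by little, NCAPH lie below the band at their GC content.

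Genes that work with the members on mitotic chromosomes were a mixed group. Of 20 such partners, a list that shares CDK1, CCNB1 and AURKB with the G2/M list below, 13 were below scramble with each hairpin, with 0 and 1 at least 2-fold lower and medians of −0.15 and −0.10. Of all genes, 51.4% and 48.4% were below scramble, and 7.19% and 7.57% were at least 2-fold lower. At 5 μM Reb 7 partners were at least 2-fold lower, against 31.1% of all genes, with a median of −0.48. Another 4 were at least 2-fold higher, a direction for which no share of all genes is given. CDK1, the kinase that starts mitosis and phosphorylates condensin, had log2 fold changes of −0.996 and −0.734 with the hairpins, and TOPBP1, a scaffold protein at damaged DNA, −0.65 and −0.46. NIFK, which binds Ki-67, was at 0.30 and 0.83, and PPP1CC, the phosphatase subunit that Ki-67 recruits, at 0.34 and 0.25. With Reb, AURKB, the kinase that phosphorylates histone H3 in mitosis, was at −1.01 at 1 μM and −4.74 at 5 μM, from 3954 counts in DMSO to 78. HMGB2, a DNA-bending protein, was at −0.58 and −1.39. PPP1CC was at 0.21 and 1.19 and AKAP8, a nuclear anchoring protein, at 0.04 and 1.24.

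Of 22 genes of cohesin and SMC5/6, the other SMC complexes, 3 were at least 2-fold lower with CDK16-sh1 and 3 with CDK16-sh2. Of all genes, 7.19% and 7.57% were. The medians of the 22 were −0.35 and −0.33. SMC1A, the arm of cohesin that corresponds to those of condensin, had log2 fold changes of −1.40 and −2.15, and ESCO2, which acetylates cohesin in S phase, −0.98 and −1.18. NSMCE1, a subunit of SMC5/6, was at 0.89 and 0.16 and NSMCE3, another, at 0.00 and 0.39. At 5 μM Reb 8 of the 22 were at least 2-fold lower, against 31.1% of all genes. Another 3 were at least 2-fold higher, without a share of all genes to set beside them. ESPL1, the separase that cuts cohesin, was at −0.88 and −4.25 over the doses, and MAU2, of the cohesin loader, at −0.43 and −3.40. ESCO1, another acetylase of cohesin, was at 0.28 and 0.49 and SMC5, an arm of SMC5/6, at 0.08 and 0.85.

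The cell cycle lists, none of whose genes is a member, give the setting. Of 33 G2/M genes 5 and 1 were at least 2-fold lower with CDK16-sh1 and CDK16-sh2, and of 33 S-phase genes 0 and 11. Of all genes, 7.19% and 7.57% were. The medians were −0.65 and −0.29 for G2/M and −0.24 and −0.75 for S phase, beside −0.66 and −0.67 for the members. The lists thus ranked differently in the hairpin libraries. Their median GC content differed too, at 43.2% for G2/M and 48.5% for S phase. The part of base composition in this ranking was not tested. At 1 μM Reb 29 of 33 G2/M genes were below DMSO, with a median of −0.25, and 11 of 33 S-phase genes, with a median of 0.11. Of all genes, 50.1% were below DMSO. At 5 μM 26 G2/M and 24 S-phase genes were at least 2-fold lower, against 31.1% of all genes. The medians were −2.12 and −1.77, beside −2.51 for the members. CKAP2L, a spindle protein, was at −0.73 and −1.04 with the hairpins, and CCNE2 and GINS4, of replication onset, at −0.95 and −1.72 and at −0.85 and −1.02. CDC25B, a CDK1-activating phosphatase, was at 0.19 and 0.17 and KIF2C, a kinesin that shortens microtubules, at 0.09 and 0.04. With Reb, CDC20, an activator of the anaphase-promoting complex, was at −0.90 and −1.37, RRM2, of nucleotide synthesis, at −0.47 and −3.85 and MCM7, of the replicative helicase, at −0.45 and −1.34. GINS3 was at 0.22 and 0.50 and RFC3, of the clamp loader, at 0.12 and 0.92. RRM2 and MCM7 were also among the genes that the study itself singled out, so they are not independent evidence of a direction. The study reported both as lower by quantitative PCR too, with Reb and with CDK16 knockdown. Whether the shift in cell cycle genes has a part in the members' values was not tested.

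Over the 4 log2 fold changes, and among 10479 genes with at least 5 CPM in both experiments, FAM111A lay nearest to TOP2A, at a Euclidean distance of 0.361. FAM111A, a protease at replication forks, had −1.15 and −1.49 with the hairpins and −0.14 and −4.21 with Reb. ADGRF5, BRCA2, ZNF609 and CASP8AP2 followed at 0.769 to 0.783. Among the genes near MKI67 was UHRF1, which helps to copy DNA methylation, at 0.381. ZBTB38, ARHGAP40 and ASF1B followed at 0.402 to 0.469. Pairs of treated libraries share a control here, which makes their values move together for any gene.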

How the data were processed

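Messenger RNA of 6 MDA-MB-231 libraries was sequenced from stranded libraries on a HiSeq X 10. The authors deposited whole-number read counts per gene symbol and RPKM values, which equal the deposited counts over gene length and total within a relative difference of 5.51e-07. The submitters' processing notes name Trimmomatic, featureCounts, Subread 1.5.1 and GRCh38. Whether counting used strand is not given in the sources used here. The tables give 41471 and 34157 symbols, of which 28 and 27 had been turned into dates.

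For CPM and log2 fold changes, edgeR 4.0.16 in R 4.3.3 was used (TMM, prior count 2, genes averaging 1 CPM or more), and for intervals SciPy 1.17.1. PCR copies could not be told from separate molecules, since no molecular identifiers are given, so intervals cover counting error only. The 2-fold and adjusted p = 0.05 thresholds are those of the study's methods. The test (edgeR quasi-likelihood, Benjamini-Hochberg over all genes) was tested on simulated data. DESeq2 1.42.0 was an alternative, with other scalings, filters and a GC and length trend. Nothing says that the libraries are separate biological samples of a condition. The p-values of the grouped test rest on the difference between the treated libraries of an experiment. Those of the dose term rest on how far 3 libraries depart from a line. Neither measures a spread between replicates. The members and lists were chosen with earlier results of these data known. Named genes are all members, CDK16, in each list the 2 genes lowest and the 2 highest by the smaller log2 fold change among those at 5 CPM or more that moved alike in both treated libraries, and the 5 nearest patterns of TOP2A and MKI67, of which 1 is not reported here. LCORL, TRIM59, IFT80 and NCAPH2 were named after their values were seen. Promoters are from RefSeq, matched by symbol.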

Additional observations from a re-analysis of the deposited data

Results flagged for a closer look

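NCAPD3 stood on opposite sides of DMSO at the 2 doses of Reb, with a log2 fold change of 0.0635 at 1 μM and −2.19 at 5 μM. TOP2B did so in the other order, with −0.10 at 1 μM and 0.0603 at 5 μM, although its value at 5 μM was −0.43 when scaled by library totals, and the doses then lay on the same side. Each dose had 1 library, so the difference between doses was not tested for either gene.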

How the results depend on the processing

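The counts of members at least 2-fold lower were 3, 3, 0 and 7. They stayed within 1.5 times of these under all alternatives but the removal of the GC and length trend. That step left 0 with CDK16-sh1 and 1 with CDK16-sh2, without a share of all genes to set beside them. The same step moved the members' median log2 fold change to −0.48 and −0.54 with the hairpins and to −0.35 and −2.27 at 1 and 5 μM Reb. Library totals gave medians of −0.86 with CDK16-sh2, −0.18 at 1 μM and −2.997 at 5 μM, totals without mitochondrial transcripts −0.78, −0.16 and −2.85, the authors' RPKM with 0.1 added −0.86, −0.18 and −2.96, and DESeq2 size factors −2.37 at 5 μM. Each scaling moved the median of all genes by a like amount. With dose as a linear term the count of members called went from 0 to 7. DESeq2, library totals, DESeq2 size factors in edgeR and no filter all left it at 0 in both experiments. Of single values, NCAPD2 with CDK16-sh2 became 0.02 with DESeq2 size factors, SMC2 at 1 μM became 0.03 by library totals, and NCAPG2 and TOP2B at 5 μM became negative by totals, RPKM and GC removal. The test of each treated library alone leaves no residual and was not run. No paired analysis was possible because each condition had 1 library. The depth was ample for all members, whose lowest count was 430, and the missing replicates limit these values.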

Other observations

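NCAPH2, the kleisin of condensin II and a gene outside the members, separated the hairpins more than any of the condensin subunits among the members did. It stood at 41.5 CPM in scramble, 67.2 CPM with CDK16-sh1 and 34.1 CPM with CDK16-sh2, or 162% and 82.2% of the control. The hairpin libraries differed by −0.98 [−1.09, −0.86] on the log2 scale, beside 0.72 [0.62, 0.82] for SMC2, the largest difference among the members. In the Reb experiment it stood at 21.6 CPM in DMSO, 19.8 CPM at 1 μM and 14.7 CPM at 5 μM, or 68.4% of DMSO. Both condensin II subunits among the members were lower than scramble with both hairpins. NCAPH2 was named after its values were seen, and no difference here has a replicate check. No value after removal of the GC and length trend is given for NCAPH2. The part of base composition in its hairpin difference was not tested.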
